A study of Homo sapiens with 8 samples.

Results

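RNA levels of 28 genes of cholesterol and fatty acid synthesis were followed in KG1a cells, a human line from acute myeloid leukemia that carries CD34, a marker of immature blood cells. The genes were taken by symbol from a table of 25168 genes, and 28 of 28 were found in it and passed the filter on low counts, among 12843 genes tested. The list covers the mevalonate and sterol enzymes, sterol transport and uptake, the liver X receptors and fatty acid synthesis. Cells were treated for 48 h with 5 µM TAK-981, with 1 µM venetoclax, with the combination of 5 µM TAK-981 and 1 µM venetoclax, or with DMSO as vehicle. TAK-981 blocks the first step of SUMO conjugation by inhibiting the SUMO-activating enzyme, and venetoclax binds the anti-apoptotic protein BCL2. Every group had 2 libraries, and the 8 totals ran from 13204588 to 26304900 counts. Whether the 2 libraries of a group are separate cultures is not said in the labels, and p-values therefore cover only the spread between libraries, which may be technical. KG1a is 1 cell line, and the bulk RNA of a culture cannot tell fewer cells of a type from less RNA per cell.

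Cholesterol is built from acetyl-CoA through the mevalonate pathway, which makes farnesyl diphosphate, then through squalene and lanosterol in a long series of enzyme steps. Most of these genes, and several genes of fatty acid synthesis, are activated by SREBP transcription factors when sterols in the endoplasmic reticulum are low, often together with the CCAAT-binding factor NF-Y. The liver X receptors are activated by oxidised sterols and raise genes that lower cell cholesterol, among them MYLIP, whose product marks lipoprotein receptors for degradation.

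The 250 bases before the most upstream RefSeq start (GRCh38.p14) are given for the 4 members with the lowest level in the combination relative to vehicle, SCD, STARD4, MSMO1 and HMGCS1, and for the 2 that rose with TAK-981, ACSS2 and MYLIP. They are written 5′ to 3′ on the strand of the gene, and capitals mark the NF-Y box CCAAT on either strand (ATTGG where it lies on the other strand). The windows are chr10:100346983-100347232 (plus strand) for SCD, chr5:111512536-111512785 (minus) for STARD4, chr4:165327419-165327668 (plus) for MSMO1, chr5:43313413-43313662 (minus) for HMGCS1, chr20:34874739-34874988 (plus) for ACSS2 and chr6:16128836-16129085 (plus) for MYLIP.
SCD: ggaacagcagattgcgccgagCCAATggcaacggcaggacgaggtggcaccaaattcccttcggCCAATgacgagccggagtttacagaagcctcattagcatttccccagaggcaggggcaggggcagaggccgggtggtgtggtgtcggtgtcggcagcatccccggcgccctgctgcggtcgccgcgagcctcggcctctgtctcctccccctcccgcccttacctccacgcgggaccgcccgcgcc
STARD4: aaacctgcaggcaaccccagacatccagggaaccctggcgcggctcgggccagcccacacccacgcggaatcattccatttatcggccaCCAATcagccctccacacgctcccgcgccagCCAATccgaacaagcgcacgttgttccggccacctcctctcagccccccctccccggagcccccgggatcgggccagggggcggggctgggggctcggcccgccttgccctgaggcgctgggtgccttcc
MSMO1: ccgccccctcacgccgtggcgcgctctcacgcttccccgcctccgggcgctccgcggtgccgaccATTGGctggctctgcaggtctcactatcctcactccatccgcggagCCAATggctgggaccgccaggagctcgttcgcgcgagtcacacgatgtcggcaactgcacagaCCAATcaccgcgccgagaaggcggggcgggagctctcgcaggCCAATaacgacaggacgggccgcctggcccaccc
HMGCS1: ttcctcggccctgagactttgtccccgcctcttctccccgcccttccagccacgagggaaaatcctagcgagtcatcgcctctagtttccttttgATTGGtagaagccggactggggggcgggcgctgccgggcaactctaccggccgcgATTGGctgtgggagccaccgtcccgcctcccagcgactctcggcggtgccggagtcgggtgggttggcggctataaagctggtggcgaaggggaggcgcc
ACSS2: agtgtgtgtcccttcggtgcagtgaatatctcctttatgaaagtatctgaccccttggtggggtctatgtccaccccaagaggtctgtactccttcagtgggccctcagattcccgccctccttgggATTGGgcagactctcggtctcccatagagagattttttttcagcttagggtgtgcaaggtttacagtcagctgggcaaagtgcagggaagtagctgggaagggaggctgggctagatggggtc
MYLIP: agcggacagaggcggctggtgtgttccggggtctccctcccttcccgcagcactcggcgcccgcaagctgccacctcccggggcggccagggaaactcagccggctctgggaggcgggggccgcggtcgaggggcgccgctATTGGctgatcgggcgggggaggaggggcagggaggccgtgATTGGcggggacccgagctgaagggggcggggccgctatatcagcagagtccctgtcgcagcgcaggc
The window searched in each promoter ran from 250 bases before to 50 bases after the start. RefSeq promoters were at hand for 24 of the 28 members. CCAAT stood in at least 1 promoter of 20 of these 24 genes (83.3%), against 39.7% of the 27305 genes in the promoter table. The GC box CCGCCC stood in 23 of 24 (95.8%), against 48.3% of all genes, and the E-box CACGTG in 2 of 24 (8.33%), against 8.78%. A gene with more windows has more chances to hold a motif. Counted by window, CCAAT stood in 24 of 38 member windows, against 34.6% of all 35116 windows. The GC box stood in 32 of 38, against 44.95%, and the E-box in 3 of 38, against 7.26%. The promoter table was not limited to the genes tested here. The sterol regulatory element core TCACNCCAC stood in 0 of 24, against 1.39% of all genes, which says only that these letters are not in the windows. Each motif was searched on both strands as an exact match, and a match is a description of letters and not of a bound site. MSMO1 held 4 CCAAT boxes in its window, and NSDHL and MVK, whose windows are not printed here, held more. The promoters of ACSS2 and MYLIP, which rose with TAK-981, also held the box.

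The level of the genes relative to each other was compared per length, as CPM (read counts relative to the scaled library size) divided by the gene length in kilobases. In vehicle cells SCD, the desaturase that makes monounsaturated fatty acids, had the highest mean level, 304 CPM per kilobase, followed by the squalene epoxidase SQLE with 155, the HMG-CoA synthase HMGCS1 with 143 and the squalene synthase FDFT1 with 103. ACSS2, an acetyl-CoA synthetase of the cytosol and nucleus, had the lowest, 0.148 CPM per kilobase, below the liver X receptor NR1H3 with 1.16 and the mevalonate kinase MVK with 2.16. With the combination SCD fell to 79.1 CPM per kilobase, close to SQLE with 67.6 and HMGCS1 with 55.1. With TAK-981 the order at the top was different, with HMGCS1 at 203, above SCD at 165 and SQLE at 98.3 CPM per kilobase.

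**Figure D1:**
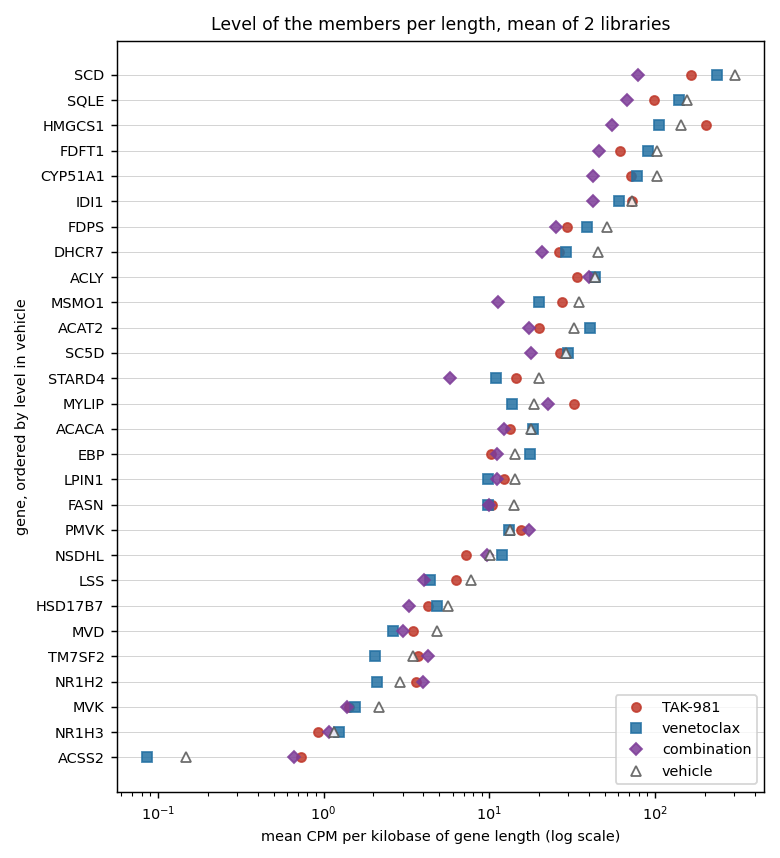
Mean CPM per kilobase of gene length (log axis) of the 28 members, 2 libraries a group, ordered by the level in vehicle. With the combination SCD stands at 79.1 and HMGCS1 at 55.1, against 304 and 143 in vehicle.

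All 28 members together took 0.494% and 0.455% of the counts in the TAK-981 libraries, 0.470% and 0.468% in the venetoclax libraries, 0.311% and 0.279% in the combination libraries, and 0.639% and 0.592% in the vehicle libraries. No treated library reached the lower vehicle value, and the combination libraries lay below those of either drug alone. SCD alone made up 18.7% and 19.2% of the members' counts with TAK-981, 25.4% and 24.98% with venetoclax, 15.6% and 14.5% with the combination, and 26.8% and 26.0% in vehicle. Within each library the median of the members' log2 CPM relative to the vehicle mean was -0.40 and -0.42 with TAK-981, -0.26 and -0.32 with venetoclax, and -0.63 and -0.76 with the combination, while the median over all 12843 genes lay between -0.02 and 0.01 in the 8 libraries. Between the 2 venetoclax replicates 7 of 28 members differed by more than 0.5 log2 units and 2, ACSS2 and NR1H2, by more than 1. No member differed by more than 0.5 between replicates in the TAK-981 or combination groups, and in vehicle ACSS2 did. Of the markers that check the label, CD34 stood between 953 and 1519 CPM, SPN between 699 and 1028 CPM, and CD33, KIT and PROM1 at or below 2.19 CPM. PTPRC, which encodes the leukocyte surface protein CD45, had 687 and 617 CPM with TAK-981, 742 and 542 CPM with venetoclax, 458 and 429 CPM with the combination, and 830.2 and 808 CPM in vehicle, and was thus lowest in the combination.

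**Figure D2:**
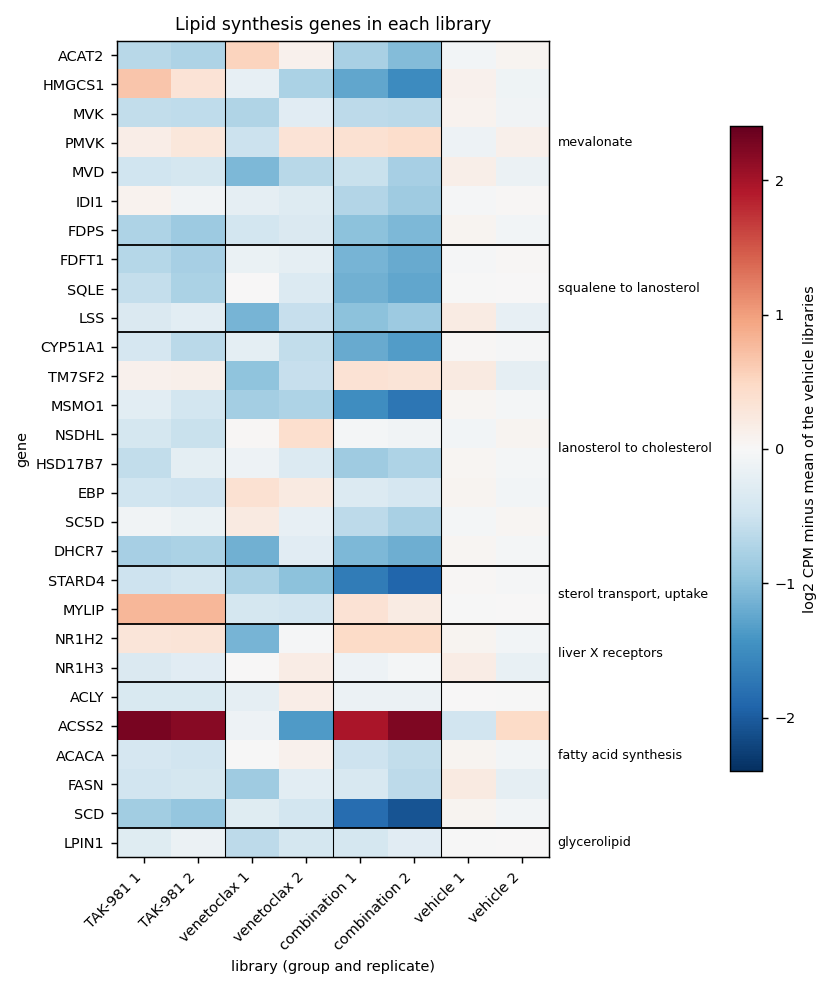
Log2 CPM of each member (rows, grouped by role) in each library (columns), minus the mean of the 2 vehicle libraries. Blue is below and red above vehicle. The combination columns hold the deepest blue, for SCD, STARD4, MSMO1 and HMGCS1, and ACSS2 is red in the 4 libraries that received TAK-981.

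The first comparison set TAK-981 alone against vehicle. Of the 28 members 10 fell (35.7%) and 2 rose, against 6.18% of all tested genes lower and 5.98% higher, 12.2% in all. Both TAK-981 libraries lay below both vehicle libraries for 21 members and above both for 5, which held for 32.9% and 32.4% of all tested genes. The members that fell were 2 of 7 mevalonate genes, 2 of 3 from squalene to lanosterol, 3 of 8 from lanosterol to cholesterol, STARD4 and 2 of 5 fatty acid genes. The median log2 fold change of the members was -0.42, against 0.0015 over all tested genes. A call is an adjusted p under 0.05 in edgeR's quasi-likelihood test, Benjamini-Hochberg adjusted across 12843 genes, and ± after a log2 fold change is its SE derived from that test.

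SCD had 915 and 849.9 CPM with TAK-981, against 1692 and 1563 CPM in vehicle, a log2 fold change of -0.88 ± 0.13 (adjusted p = 0.00327). FDPS, the synthase of farnesyl diphosphate, had 114 and 104 CPM with TAK-981, against 201 and 181 CPM in vehicle, a log2 fold change of -0.81 ± 0.10 (adjusted p = 0.00155). FDFT1, which joins farnesyl diphosphate into squalene, had 332 and 308 CPM with TAK-981, against 528 and 545 CPM in vehicle, a log2 fold change of -0.75 ± 0.10 (adjusted p = 0.00206). For these 3 genes both TAK-981 libraries lay well below both vehicle libraries, at 54.2%, 57.0% and 59.7% of the vehicle mean. ACAT2, a cytosolic acetyl-CoA acetyltransferase that starts the pathway, had 87.3 and 83.0 CPM with TAK-981, against 133 and 144 CPM in vehicle, a log2 fold change of -0.70 ± 0.15 (adjusted p = 0.0166). DHCR7, which catalyses the last step to cholesterol, had 108 and 112 CPM with TAK-981, against 194 and 184 CPM in vehicle, a log2 fold change of -0.78 ± 0.22 (adjusted p = 0.0496). SQLE had 449 and 395 CPM with TAK-981, against 664 and 667 CPM in vehicle, a log2 fold change of -0.66 ± 0.13 (adjusted p = 0.0138). The lanosterol demethylase CYP51A1, the sterol isomerase EBP, the sterol carrier STARD4 and the acetyl-CoA carboxylase ACACA fell less, with log2 fold changes between -0.52 and -0.44.

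ACSS2 and MYLIP rose with TAK-981. ACSS2 had 4.04 and 3.74 CPM with TAK-981, from 94 and 70 counts, against 0.521 and 1.07 CPM in vehicle, from 12 and 25 counts. Its level with TAK-981 was 4.90 times that in vehicle (log2 fold change 2.28 ± 0.39, adjusted p = 0.00657), from low counts in each library, and the log2 fold change was 1.86 without vehicle replicate 1 and 2.89 without vehicle replicate 2. MYLIP had 98.4 and 98.5 CPM with TAK-981, against 55.8 and 57.0 CPM in vehicle, a log2 fold change of 0.80 ± 0.10 (adjusted p = 0.00127). Its replicates lay almost on each other in both groups. HMGCS1, the enzyme that makes HMG-CoA, had 1064 and 839 CPM with TAK-981, against 717 and 627 CPM in vehicle, higher in both TAK-981 libraries but not called (log2 fold change 0.50 ± 0.20, adjusted p = 0.139). The isomerase gene IDI1, with a log2 fold change of -0.0011, lay at the vehicle level.

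Among 61 other genes of lipid metabolism taken from a list, 56 were tested. Of these, 7 fell (12.5%) and 2 rose (3.57%) with TAK-981, against 6.18% and 5.98% of all tested genes. INSIG1, which holds SREBP in the endoplasmic reticulum, had 2577 and 2455 CPM with TAK-981, against 237 and 214 CPM in vehicle, a log2 fold change of 3.48. The fatty acid elongase ELOVL5 (-0.58), the coenzyme Q side-chain synthase PDSS1 (-0.80) and the lipoprotein receptor LRP8 (-0.71) fell. Monocyte markers moved with TAK-981 too, since the summed level of 5 such genes was 16.6 and 17.0 CPM with TAK-981, 2.28 and 1.99 CPM with venetoclax, 10.9 and 9.25 CPM with the combination, and 4.52 and 4.27 CPM in vehicle. Most of that sum was the integrin ITGAM, all 5 had a count in each TAK-981, combination and vehicle library, CSF1R and LYZ had no count with venetoclax, and the part of these markers in the lipid result was not tested. The count of members that fell was 3 without vehicle replicate 1 and 3 without vehicle replicate 2, 1 without TAK-981 replicate 2, 3 without TAK-981 replicate 1, and 18 when either venetoclax library was left out, whose spread enters the shared estimate. Calls over all tested genes moved the same way, to 2.94% and 2.98% without a vehicle library, 2.55% and 2.87% without a TAK-981 library, and 29.4% and 29.5% without a venetoclax library. FDPS and MYLIP were called in each of these 8 refits, and ACSS2 was not called without vehicle replicate 1 or TAK-981 replicate 1. CYP51A1, EBP and DHCR7 were called in leave-one-out refits only where a venetoclax library was the one left out. ACAT2, SQLE, STARD4 and ACACA were not called without either vehicle or either TAK-981 library. DHCR7 was also not called with upper-quartile scaling or a mean of at least 1 CPM. With both venetoclax libraries left out 18 members fell, and 3, with HMGCS1 among them, rose, where 30.2% of all tested genes were called.

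**Figure D3:**
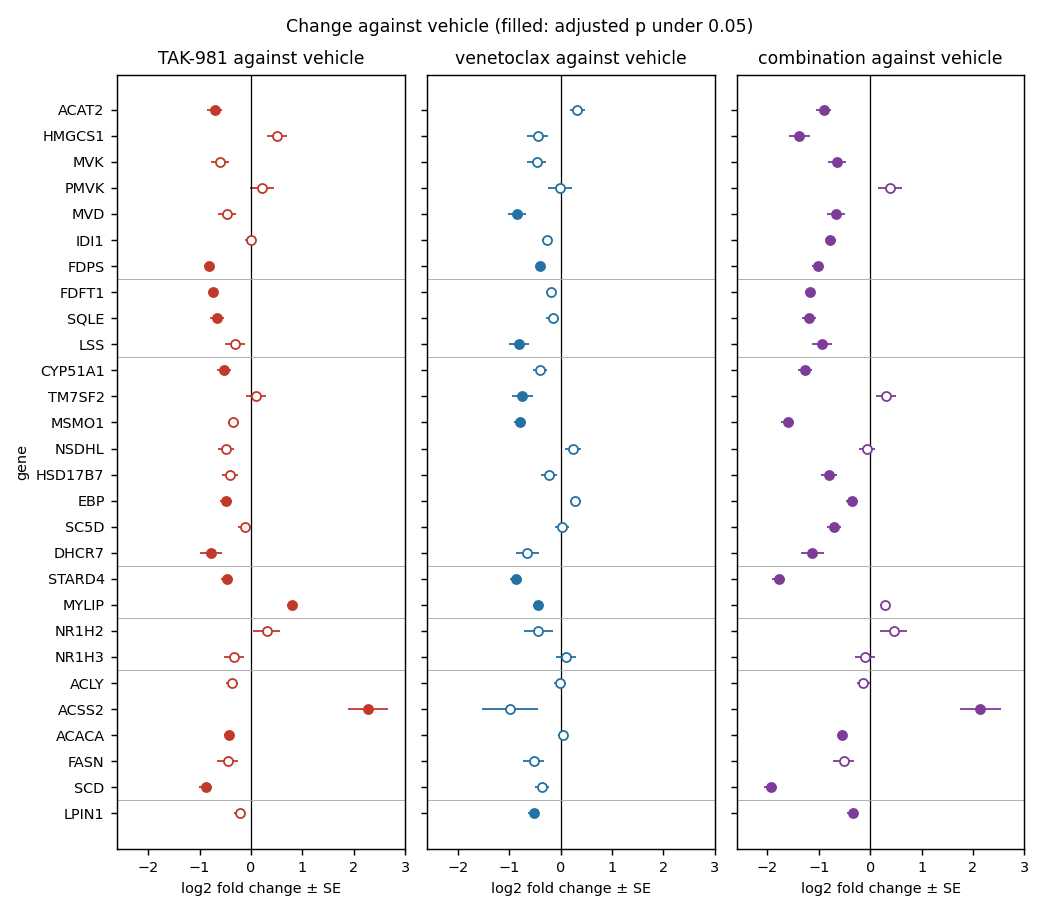
Log2 fold change against vehicle (x axis, bars are SE) of the 28 members with TAK-981, venetoclax and the combination. Filled points were called at an adjusted p under 0.05, 12, 8 and 20 members in the 3 panels, and lines part the roles.

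Venetoclax alone was compared with vehicle in the same way. Of the 28 members 8 fell (28.6%) and 0 rose, against 9.44% of all tested genes lower and 11.4% higher, 20.8% in all. Both venetoclax libraries lay below both vehicle libraries for 17 members and above both for 2, which held for 28.5% and 29.7% of all tested genes. At an unadjusted p under 0.05, 15 members were lower and 1 higher, where 36.2% of all tested genes reached that p, and DESeq2 and limma-voom also called 0 higher. The members that fell were the mevalonate decarboxylase MVD, FDPS, the lanosterol synthase LSS, the sterol reductase TM7SF2, the sterol methyl oxidase MSMO1, STARD4, MYLIP and LPIN1, a phosphatidate phosphatase of glycerolipid synthesis. The 5 fatty acid genes did not pass the test, with adjusted p-values in edgeR from 0.0759 for SCD to 0.961 for the citrate lyase ACLY. SCD was called lower with DESeq2's test, upper-quartile scaling, no filter, the replicate number as a block and without venetoclax replicate 1. FASN was called lower with DESeq2's test, no filter and without venetoclax replicate 2. ACSS2 was called lower without venetoclax replicate 1, and ACLY without venetoclax replicate 2. The median of the members was -0.40 on the log2 scale.

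STARD4, which carries cholesterol between membranes, had 67.3 and 57.2 CPM with venetoclax, against 116 and 112 CPM in vehicle, a log2 fold change of -0.87 ± 0.12 (adjusted p = 0.00278). MSMO1, which removes methyl groups after lanosterol, had 56.4 and 59.6 CPM with venetoclax, against 103 and 96.5 CPM in vehicle, a log2 fold change of -0.78 ± 0.12 (adjusted p = 0.00412). These were the members with the smallest adjusted p in this comparison, and with the 4 libraries of the 2 groups alone only STARD4 and MSMO1 were called. MYLIP had 41.9 and 41.2 CPM with venetoclax, against 55.8 and 57.0 CPM in vehicle, a log2 fold change of -0.44 ± 0.10 (adjusted p = 0.0151). It thus fell with venetoclax and rose with TAK-981. MVD had 10.7 and 14.2 CPM with venetoclax, against 24.9 and 20.4 CPM in vehicle, a log2 fold change of -0.85 ± 0.18 (adjusted p = 0.0133). LSS had 25.7 and 37.9 CPM with venetoclax, against 64.1 and 48.3 CPM in vehicle, a log2 fold change of -0.81 ± 0.19 (adjusted p = 0.0192). For both genes the groups did not overlap, and the venetoclax replicates stood apart. ACAT2 had 201 and 148 CPM with venetoclax, against 133 and 144 CPM in vehicle, and was not called (0.33 ± 0.15, adjusted p = 0.143). It overlaps the chaperonin gene TCP1 on the other strand over 558 bases, and TCP1 was higher with venetoclax by 0.65 log2 units (adjusted p = 0.00368).

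DHCR7 had 85.1 and 155 CPM with venetoclax, against 194 and 184 CPM in vehicle, and was not called (-0.64 ± 0.22, adjusted p = 0.0658). It was called with DESeq2's test, with no filter and without either venetoclax library. NR1H2, the widely expressed liver X receptor, had 4.87 and 10.4 CPM with venetoclax, against 11.1 and 10.2 CPM in vehicle, so that 1 venetoclax library lay within the vehicle range and the other far below it. Of the 56 other lipid genes tested, 10 rose (17.9%) and 9 fell (16.1%) with venetoclax, against 11.4% and 9.44% of all tested genes. Those that fell included the cholesterol exporter ABCA1 (-0.99), the transcription factor gene SREBF2 (-0.70) and INSIG2 (-1.09), and HACD3, which acts in fatty acid elongation, rose (0.51). The count of members that fell was 1 without vehicle replicate 1, 3 without vehicle replicate 2, 15 without venetoclax replicate 1 and 14 without venetoclax replicate 2, where 1.93%, 4.09%, 31.1% and 40.9% of all tested genes were called. STARD4 was called in each of the 8 refits.

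The combination was next set against vehicle. Of the 28 members 19 fell (67.9%) and 1 rose, against 15.1% of all tested genes lower and 12.8% higher, 27.9% in all. Both combination libraries lay below both vehicle libraries for 21 members and above both for 5, which held for 35.8% and 36.8% of all tested genes. Of the 18 enzymes from acetyl-CoA to cholesterol 15 fell, 6 of 7 in the mevalonate part, 3 of 3 from squalene to lanosterol and 6 of 8 after lanosterol, and the exceptions were the phosphomevalonate kinase PMVK, TM7SF2 and the sterol dehydrogenase NSDHL. STARD4, ACACA, SCD and LPIN1 fell as well, and ACSS2 rose. The summed level of 5 T cell markers, nearly all from CD3D and CD3E with CD4 at 0, was 45.6 and 46.8 CPM with TAK-981, 42.6 and 30.7 CPM with venetoclax, 23.9 and 27.8 CPM with the combination, and 37.4 and 50.2 CPM in vehicle. CD3E had 5.62 and 6.41 CPM with the combination, against 13.2 and 15.6 CPM in vehicle, and CD3D 17.9 and 21.0, against 24.0 and 34.4 CPM. CD8A went the other way at very low levels, 0.320 and 0.437 CPM with the combination, against 0.0869 and 0.0854 CPM in vehicle. With TAK-981 CD3D had 36.8 and 38.7 CPM, above both vehicle libraries, and CD3E had 8.34 and 8.02 CPM, below both. The part of these markers and of PTPRC in the lipid result was not tested. The median of the members was -0.68 on the log2 scale, against 0.012 over all tested genes.

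SCD had 458 and 389 CPM with the combination, against 1692 and 1563 CPM in vehicle, a log2 fold change of -1.94 ± 0.13 (adjusted p = 4.2e-05). The combination libraries held 26.0% of the vehicle level of this gene (chromosome 10, 100347124 to 100364834, hg38). STARD4 had 35.4 and 30.4 CPM with the combination, against 116 and 112 CPM in vehicle, a log2 fold change of -1.79 ± 0.12 (adjusted p = 4.0e-05). MSMO1 had 35.3 and 29.9 CPM with the combination, against 103 and 96.5 CPM in vehicle, a log2 fold change of -1.61 ± 0.12 (adjusted p = 6.1e-05). HMGCS1 had 282 and 234 CPM with the combination, against 717 and 627 CPM in vehicle, a log2 fold change of -1.38 ± 0.20 (adjusted p = 0.00149). These 4 were the members furthest below vehicle, at 26.0% to 38.5% of the vehicle mean, and none of their libraries overlapped. CYP51A1 had 211 and 190.3 CPM with the combination, against 491 and 478 CPM in vehicle, a log2 fold change of -1.27 ± 0.14 (adjusted p = 0.00041). SQLE had 298 and 282 CPM with the combination, against 664 and 667 CPM in vehicle, a log2 fold change of -1.20 ± 0.13 (adjusted p = 0.000429). FDFT1 had 247 and 231 CPM with the combination, against 528 and 545 CPM in vehicle, a log2 fold change of -1.17 ± 0.10 (adjusted p = 0.000128). DHCR7 and FDPS also fell to 45.7% and 49.1% of the vehicle mean, with log2 fold changes of -1.13 and -1.03.

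ACAT2 (-0.91), MVK (-0.65), MVD (-0.66), IDI1 (-0.77), LSS (-0.95), the ketoreductase HSD17B7 (-0.80), the desaturase SC5D (-0.70), EBP (-0.36), ACACA (-0.55) and LPIN1 (-0.35) fell less on the log2 scale. EBP and LPIN1 were near the threshold, with adjusted p = 0.0463 and 0.042, and EBP was not called with DESeq2's test or size factors, with upper-quartile scaling or with no filter. LPIN1 was not called with upper-quartile scaling, and EBP, LPIN1 and MVK were called in leave-one-out refits only where a venetoclax library was the one left out. ACSS2 had 3.20 and 3.93 CPM with the combination, against 0.521 and 1.07 CPM in vehicle, a log2 fold change of 2.14 ± 0.40 (adjusted p = 0.00442), which was 1.72 without vehicle replicate 1 and 2.75 without vehicle replicate 2. FASN, the fatty acid synthase, had 96.8 and 81.9 CPM with the combination, against 147 and 109 CPM in vehicle, and was not called (-0.52 ± 0.20, adjusted p = 0.0857). ACLY, which makes acetyl-CoA from citrate, had 206 and 206 CPM with the combination, against 228 and 225 CPM in vehicle, and was not called (-0.13 ± 0.12, adjusted p = 0.46). The liver X receptors NR1H2 (0.45) and NR1H3 (-0.10), PMVK (0.38), TM7SF2 (0.31), NSDHL (-0.07) and MYLIP (0.28) were not called. Among the other lipid genes 18 of 56 fell (32.1%) and 4 rose (7.14%), against 15.1% and 12.8% of all tested genes. The desaturase FADS2 (-1.35) and SREBF2 (-0.89) were lower, and INSIG1 (6.08-fold) and the polyprenol reductase SRD5A3 (log2 fold change 1.00) higher. The count of members that fell was 12 without combination replicate 2 (10.9% of all tested genes called) and 13 to 20 without any other library (11.6% to 46.6% called), and 4 members rose without either or both of the venetoclax libraries, PMVK, MYLIP, NR1H2 and ACSS2. In each of the 8 refits without 1 library, ACAT2, HMGCS1, IDI1, FDPS, FDFT1, SQLE, CYP51A1, MSMO1, STARD4 and SCD fell and ACSS2 rose.

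**Figure D4:**
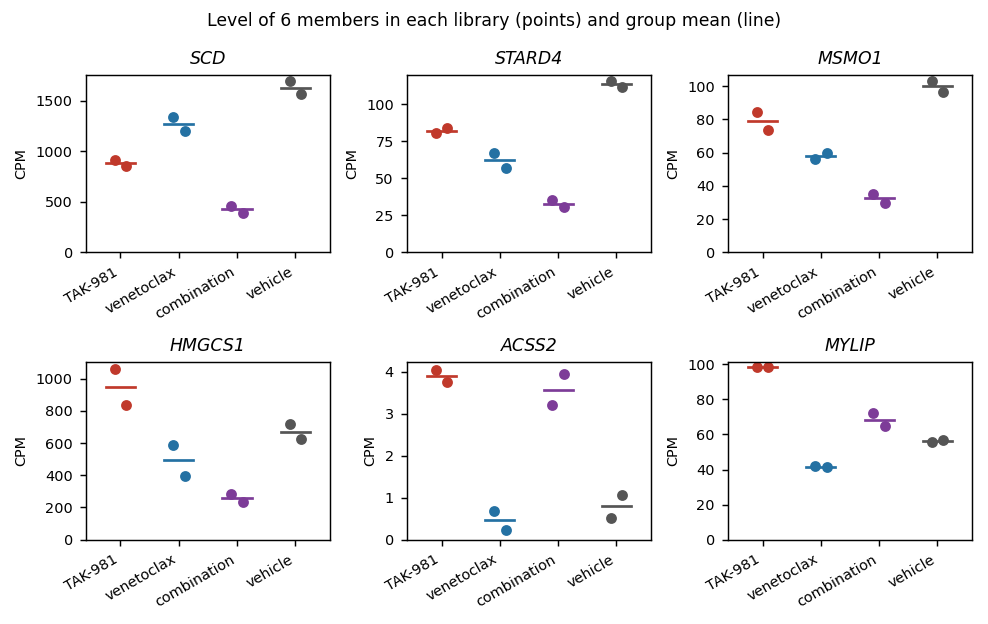
CPM of SCD, STARD4, MSMO1, HMGCS1, ACSS2 and MYLIP in each of the 8 libraries (points) with the mean of each group (line, n = 2). HMGCS1 stands at 839 and 1064 CPM with TAK-981 and at 234 and 282 CPM with the combination, while ACSS2 lies between 3.20 and 4.04 CPM in both groups.

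The combination was compared with each drug alone to show what the other drug adds. Against venetoclax, 14 of 28 members fell (50%) and 4 rose (14.3%), where 22% of all tested genes fell and 17.6% rose, 39.6% in all. The libraries of the combination lay wholly below those of venetoclax for 16 members and wholly above for 5, which held for 35.8% and 32.9% of all tested genes. SCD had 458 and 389 CPM with the combination, against 1336 and 1197 CPM with venetoclax, a log2 fold change of -1.58 ± 0.13 (adjusted p = 0.000132). ACAT2 had 80.3 and 67.7 CPM with the combination, against 201 and 148 CPM with venetoclax, a log2 fold change of -1.23 ± 0.15 (adjusted p = 0.000642). TCP1, which overlaps ACAT2 on the other strand over 558 bases, was lower too (log2 fold change -0.57, adjusted p = 0.00211). The genes that rose against venetoclax were ACSS2 (3.13), TM7SF2 (1.05), NR1H2 (0.89) and MYLIP (0.72). Without venetoclax replicate 1 NR1H2 stood at 0.48 and ACSS2 at 3.87, and without venetoclax replicate 2 NR1H2 stood at 1.57 and ACSS2 at 2.34. TM7SF2 had 14.8 and 14.4 CPM with the combination, against 5.94 and 7.95 CPM with venetoclax, and NR1H2 had 14.6 and 14.6 CPM with the combination, against 4.87 and 10.4 CPM with venetoclax. TM7SF2 overlaps VPS51 on the same strand over 16 bases, and VPS51 was higher by 0.62 log2 units without a call (adjusted p = 0.0968). With the 4 libraries of the 2 groups alone NR1H2, IDI1 and HSD17B7 were not called, and NR1H2 was called in leave-one-out refits only where a venetoclax library was the one left out. Among the other lipid genes 15 of 56 fell (26.8%) and 11 rose (19.6%), where 22% of all tested genes fell and 17.6% rose. INSIG1 stood at 3.31, PDSS1 at -1.09, the acyl-CoA synthetase ACSL3 at -1.19 and LRP8 at -0.95.

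Against TAK-981, 10 of 28 members fell (35.7%) and 0 rose, where 6.03% of all tested genes fell and 2.76% rose, 8.8% in all. The libraries of the combination lay wholly below those of TAK-981 for 18 members and wholly above for 7, which held for 31.6% and 33.8% of all tested genes. At an unadjusted p under 0.05, 12 were lower and 1 higher, where 24.6% of all tested genes reached that p, and DESeq2 and limma-voom called 0 higher. HMGCS1 had 282 and 234 CPM with the combination, against 1064 and 839 CPM with TAK-981, a log2 fold change of -1.88 ± 0.20 (adjusted p = 0.00205), or 0.272 of the mean with TAK-981. STARD4 had 35.4 and 30.4 CPM with the combination, against 80.4 and 83.6 CPM with TAK-981, a log2 fold change of -1.31 ± 0.12 (adjusted p = 0.00115). MSMO1 had 35.3 and 29.9 CPM with the combination, against 84.2 and 73.5 CPM with TAK-981, a log2 fold change of -1.27 ± 0.12 (adjusted p = 0.00115). For STARD4 and MSMO1 the ratio of means was 0.402 and 0.414, and no library of the combination overlapped one with TAK-981. SCD (-1.06), IDI1 (-0.77), CYP51A1 (-0.75), SC5D (-0.59), SQLE (-0.54), MYLIP (-0.52) and FDFT1 (-0.42) fell as well. SC5D, SQLE and FDFT1 were called in leave-one-out refits only where a venetoclax library was the one left out. CYP51A1 and MYLIP were not called without either combination or either TAK-981 library. ACSS2 had 3.20 and 3.93 CPM with the combination, against 4.04 and 3.74 CPM with TAK-981, and the groups overlapped (-0.14 ± 0.34, adjusted p = 0.833). Among the other lipid genes 11 of 56 fell (19.6%) and 2 rose, with INSIG2 (-1.17), INSIG1 (-0.88) and SREBF2 (-0.56) lower and SRD5A3 (0.68) higher. The count of members that fell was 3 without combination replicate 2, 5 without combination replicate 1, 5 without TAK-981 replicate 2 and 4 without TAK-981 replicate 1, with HMGCS1, MSMO1 and STARD4 in each. In these 4 refits 0.496%, 1.8%, 0.789% and 1.15% of all tested genes were called.

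**Figure D5:**
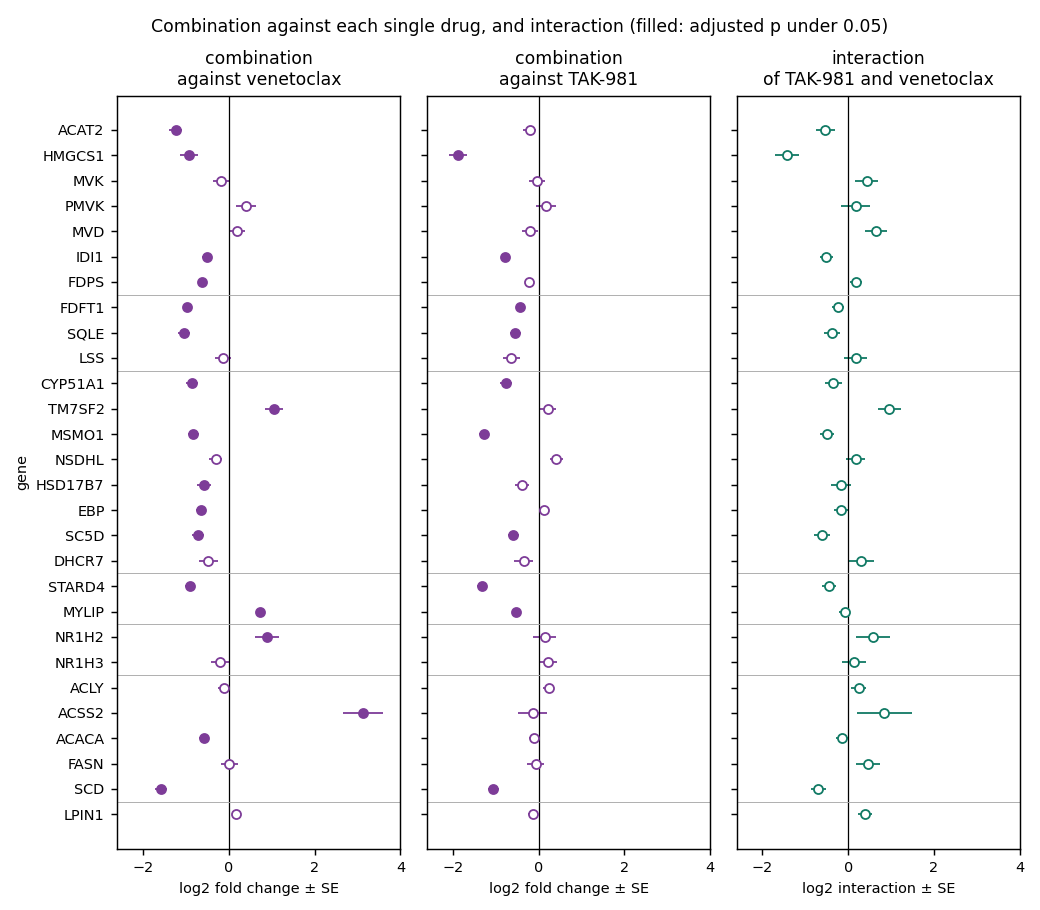
Log2 fold change of the combination against venetoclax and against TAK-981, and the log2 interaction (x axes, bars are SE), for the 28 members. Filled points had an adjusted p under 0.05, 18, 10 and 0 members in the 3 panels, and HMGCS1 has the lowest interaction, at -1.43.

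The interaction asks whether the effect of TAK-981 in venetoclax-treated cells differs from its effect without venetoclax. In edgeR's test 0 of the 28 members were called, where 0.0311% of all tested genes were called. At an unadjusted p under 0.05, 7 members were below and 3 above 0, against 18.9% of all tested genes at that p. DESeq2 called HMGCS1 and SCD below 0, where it called 2.59% of the genes that received an adjusted p. With limma-voom 0 members were called, and 0.0701% of all tested genes. HMGCS1 had the lowest estimate, -1.43 ± 0.28 (adjusted p = 0.108), with a log2 fold change of 0.50 for TAK-981 and -0.45 for venetoclax, and -1.38 for the combination. The estimates of SCD (-0.70 ± 0.18, adjusted p = 0.143), SC5D (-0.61 ± 0.19, adjusted p = 0.178), IDI1 (-0.51 ± 0.15, adjusted p = 0.167) and TM7SF2 (0.96 ± 0.28, adjusted p = 0.166) were also not called. Without venetoclax replicate 2, 18 members were called, 9 in each direction, where 33.9% of all tested genes were called. Without venetoclax replicate 1, HMGCS1, IDI1, MSMO1 and SCD were called, all below 0, where 5.4% of all tested genes were called. A fit without 1 venetoclax library takes the spread from the other groups.

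STARD4 was called lower in each of the 5 comparisons of 2 groups, which share libraries with each other. Members called in 0 comparisons were PMVK, NSDHL, NR1H3, ACLY and FASN. PMVK ranged from 11.9 to 22.7 CPM over the 8 libraries, NSDHL from 13.9 to 26.7, NR1H3 from 4.04 to 5.92, ACLY from 175 to 254 and FASN from 70.4 to 147. NR1H3 overlaps ACP2 on the other strand over 607 bases, and MVK overlaps MMAB, a gene of vitamin B12 metabolism, over 620 bases on the other strand, and reads there are uncertain because the strand setting is not given. MMAB was lower than vehicle with TAK-981 (-1.11) and with the combination (-1.28), and ACP2 was higher with the combination (0.94, adjusted p = 0.013).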

How the data were processed

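Per the file headers, the deposited table gives unnormalized whole-number read counts per gene with hg38 coordinates and a gene length in kilobases. The submitters' processing notes list Trimmomatic, STAR 2.6.0, HTSeq 0.11.1 and edgeR, with no role stated. Annotation release, strand setting and handling of multi-mapping reads: not given in the sources used here. The library method differs between sources (ribosomal depletion in the design text, SMART-Seq in the protocols). Groups and replicates came from the labels.

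Counts were tested with edgeR 4.0.16 (R 4.3.3, limma 3.58.1) by its quasi-likelihood F test, with TMM scaling, filterByExpr by group, robust dispersion and 1 fit over 8 libraries, two-sided, with Benjamini-Hochberg adjustment over 12843 genes and a threshold of 0.05. SEs were approximated from the fold change and F. CPM used TMM-scaled totals, and log2 CPM a prior count of 2. The test was checked on simulated counts that had the same spread in every library. They did not copy the wider gap between the venetoclax replicates, so the check does not cover it. The members, lists and alternatives were chosen with earlier results of these data known. All members are accounted for, and among 61 other lipid genes (61 matched, 1 by an older name) up to 4 called genes with the smallest p are named per comparison. Alternatives were DESeq2 size factors, upper-quartile scaling, the replicate number as a block, no filter, a minimum mean of 1 CPM, DESeq2 1.42.0, limma-voom, the 4 libraries compared alone and each library left out. Leaving out both venetoclax libraries was chosen after seeing the data.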

Additional observations from a re-analysis of the deposited data

How the results depend on the processing

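No called member changed sign under any alternative run. With the 4 libraries of a comparison alone, 18 members fell with TAK-981, 2 with venetoclax, 4 rose with the combination against vehicle and 2 rose with the combination against TAK-981. In these runs 32.5%, 1.63%, 45.6% and 29.8% of all tested genes were called. With both venetoclax libraries left out 18 members fell with TAK-981, and 4 and 2 rose with the combination against vehicle and TAK-981. There 30.2%, 47.8% and 28.8% of all tested genes were called. With no filter on low counts 13 members fell with venetoclax, and the interaction had 3 below 0 and 1 above. Of all genes tested that way, 20.1% and 6.06% were called in these 2 comparisons. DESeq2 called 2 members below 0 in the interaction, where it called 2.59% of the genes that received an adjusted p. With upper-quartile scaling, and with a mean of at least 1 CPM, 2 members rose with the combination against vehicle. There 28.3% and 29% of all tested genes were called. Upper-quartile scaling moved the members' median from -0.40 to -0.49 with venetoclax alone. It moved that median from -0.50 to -0.34 where the combination was set against venetoclax, and from 0.023 to 0.14 in the interaction. The median of all genes moved from 0 to -0.083, from -0.021 to 0.13 and from -0.013 to 0.11 in the same order. In each of these comparisons the medians of the members and of all genes moved in the same direction.

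Leaving out 1 library gave 1 to 18 members lower and 1 to 3 higher with TAK-981 against vehicle, 1 to 15 lower and 0 to 2 higher with venetoclax, and 12 to 20 lower and 1 to 4 higher with the combination against vehicle. The combination had 11 to 17 lower and 3 to 6 higher against venetoclax, and 3 to 14 lower and 0 to 2 higher against TAK-981. The interaction had 0 to 9 below and 0 to 9 above 0. The members' median log2 fold change ranged from -0.50 to -0.34 with TAK-981, -0.42 to -0.26 with venetoclax, -0.77 to -0.63 with the combination against vehicle, -0.53 to -0.33 against venetoclax and -0.34 to -0.21 against TAK-981. For the interaction it ranged from -0.074 to 0.076, so its sign turned. Where 1 library was left in a group, it was taken to vary like the other groups. The share of all tested genes called also changed between these refits. In each comparison the fewest members were called lower, or below 0, where the smallest share of all tested genes was called. These ranges therefore do not separate a change in the members from one over all tested genes.

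With the replicate number as a block, 12 members fell with venetoclax, among them HMGCS1, CYP51A1, DHCR7 and SCD, which were not called without it, and 23.3% of all tested genes were called. HMGCS1 was the 1 member called below 0 in the interaction, where 0.187% of all tested genes were called. HMGCS1 was also called higher with TAK-981. The deviations of same-numbered libraries correlated between -0.0095 and 0.21 over the 6 pairs of groups, above 0.1 in 3 of them, and the labels name no batch shared by a number, so whether the numbers mark one was not settled. ACSS2 rests on 6 to 94 counts a library, so its fold changes are the least precise of the members.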

Other observations

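Of 12 genes that draw isoprenoids from the mevalonate pathway for dolichol, coenzyme Q and protein prenylation, 6 rose with venetoclax against vehicle and the other 6 were not called, while 11.4% of all tested genes rose. The genes that rose, named after their values were seen, were the dolichol kinase DOLK (log2 fold change 0.83), PDSS1 (0.65), SRD5A3 (0.57), the dehydrodolichyl diphosphate synthase subunits DHDDS (0.54) and NUS1 (0.38), and COQ2 (0.48), which attaches the side chain of coenzyme Q. The median of the 12 was 0.34. With TAK-981 against vehicle PDSS1 was the 1 gene of the 12 called, and it fell (-0.80). With the combination against vehicle, where 12.8% of all tested genes rose and 15.1% fell, 3 of 12 rose (25%), DOLK (1.32), SRD5A3 (1.00) and DHDDS (0.87), and 2 fell, PDSS1 (-0.44) and the prenyltransferase subunit PGGT1B (-0.55). With the combination against venetoclax, where 22% of all tested genes fell and 17.6% rose, 4 of 12 fell, PDSS1 (-1.09), NUS1 (-0.68), PGGT1B (-0.64) and COQ2 (-0.51), and 1, SRD5A3 (0.43), rose. Against TAK-981 the combination had 2 of 12 higher (16.7%) and 0 lower, where 2.76% of all tested genes rose and 6.03% fell. With the 4 libraries of venetoclax and vehicle alone 1.63% of all tested genes were called, against 20.8% in the fit over 8 libraries. How the calls of these 12 genes held in the other runs is not given here.

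Among 10 regulators of sterol synthesis 4 fell with venetoclax against vehicle and the other 6 were not called, where 9.44% of all tested genes fell. The 4 that fell were INSIG2 (-1.09), INSIG1 (-0.70) and the genes of the SREBP transcription factors, SREBF2 (-0.70) and SREBF1 (-0.62). The same 4 genes fell with the combination against TAK-981, where 6.03% of all tested genes fell, by the values INSIG2 -1.17, INSIG1 -0.88, SREBF1 -0.74 and SREBF2 -0.56. With TAK-981 against vehicle INSIG1 was the 1 regulator called, and it rose (3.48). With the combination against vehicle 4 fell, INSIG2 (-1.48), SREBF1 (-0.92), SREBF2 (-0.89) and MBTPS2 (-0.39), where 15.1% of all tested genes fell, and INSIG1 rose 6.08-fold. With the combination against venetoclax INSIG1 was the 1 regulator called (3.31). How the calls of these 10 genes held in the other runs is not given here either.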
